A study of Mus musculus with 10 samples.

Results

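Testis transcripts of mice killed 7.5 h after an injection of trichostatin A (TSA) were compared with those of mice that had received the carrier alone. The comparison rests on 4 of the 10 arrays of the series: 2 arrays of the TSA 7.5 h pool and 2 arrays of the control pool, taken by their labelled treatment and time. All mice were male, 9 weeks old and of the strain given as Balb-c. The TSA group received 60 µg per mouse in 1 subcutaneous injection, with dimethylsulfoxide and PBS as carrier. The control group received that carrier and was killed at 10 h, so the hour of killing and TSA cannot be told apart here. Each group gave 1 pool, made from the RNA of 3 mice and hybridised to a pair of CodeLink arrays in the Cy5 channel alone. The duplicate arrays are thus technical (n = 1 pool per group). No p-value is therefore given, and errors are standard errors of the duplicate arrays of both pools, which hold no difference between animals. Log2 folds are TSA minus control, on the mean log2 intensity of the 2 arrays of a pool.

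TSA blocks the zinc-dependent histone deacetylases, the enzymes that remove acetyl groups from histone tails and from many other proteins. Acetylated histones are bound by bromodomain proteins, and their removal usually goes with closed chromatin. Sirtuins remove acetyl groups with NAD as cofactor and are not the enzymes that TSA blocks. In the testis, spermatogonia divide, spermatocytes pass through meiosis, and round spermatids elongate. During elongation histones become strongly acetylated before transition proteins and then protamines take their place. Sertoli cells nurse the germ cells, and Leydig cells outside the tubules make testosterone.

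The arrays of the 7.5 h pool differed more from each other than did those of any other pool. Across 7423 probes their correlation was 0.995 and the standard deviation of 1 array was 0.163 on the log2 scale, against 0.0934 to 0.122 in the other 4 pools. Of the 53 probes that were 2-fold apart between these duplicates, 49 lay in the dimmest 25% of probes and 7 were among the probes called below. Each TSA array set against each control array gave 97 to 107 probes that were 2-fold higher and 85 to 103 that were 2-fold lower. Markers of testis cells were present as labelled: Tnp1, the transition protein of elongating spermatids, had an intensity of 172 in the control pool and 185 in the TSA pool, and Ldhc, the lactate dehydrogenase of germ cells, 195 and 219. Both pools therefore showed the germ cell transcripts that define the tissue.

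A probe was called when its fold was at least 2 and both TSA arrays lay beyond both control arrays. On the higher side 75 of 7423 probes met this rule (1.01%), and 67 did on the lower side (0.903%). With 1 probe for each of 6574 genes, 71 genes were higher (1.08%) and 54 lower (0.821%). At a limit of 1.5-fold, 469 probes were higher (6.32%) and 407 lower (5.48%), or 409 genes (6.22%) and 357 genes (5.43%). The median log2 fold of all probes was -0.01 with quartiles of -0.24 and 0.23. Dim probes gave most calls on the lower side. Of the 67 lower calls, 53 fell in the dimmest 25% of probes and 0 in the brightest 25%, whereas the 75 higher calls were spread as 37, 20, 14 and 4 over 4 equal groups of rising intensity. The median log2 fold of the dimmest 25% was -0.03, so dim probes as a whole were not shifted upward. Counts depended on dim probes: no filter on them gave 268 higher and 286 lower calls, and an offset of 0.5 added before log2 gave 14 and 4. In 29 higher and 25 lower calls 1 of the pools was below the intensity limit of 0.207, and for these only intensities are given. The largest difference on the lower side belonged to a probe with no gene symbol, which stood at 12.8 in the control pool and 0.721 in the TSA pool.

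**Figure D1:**
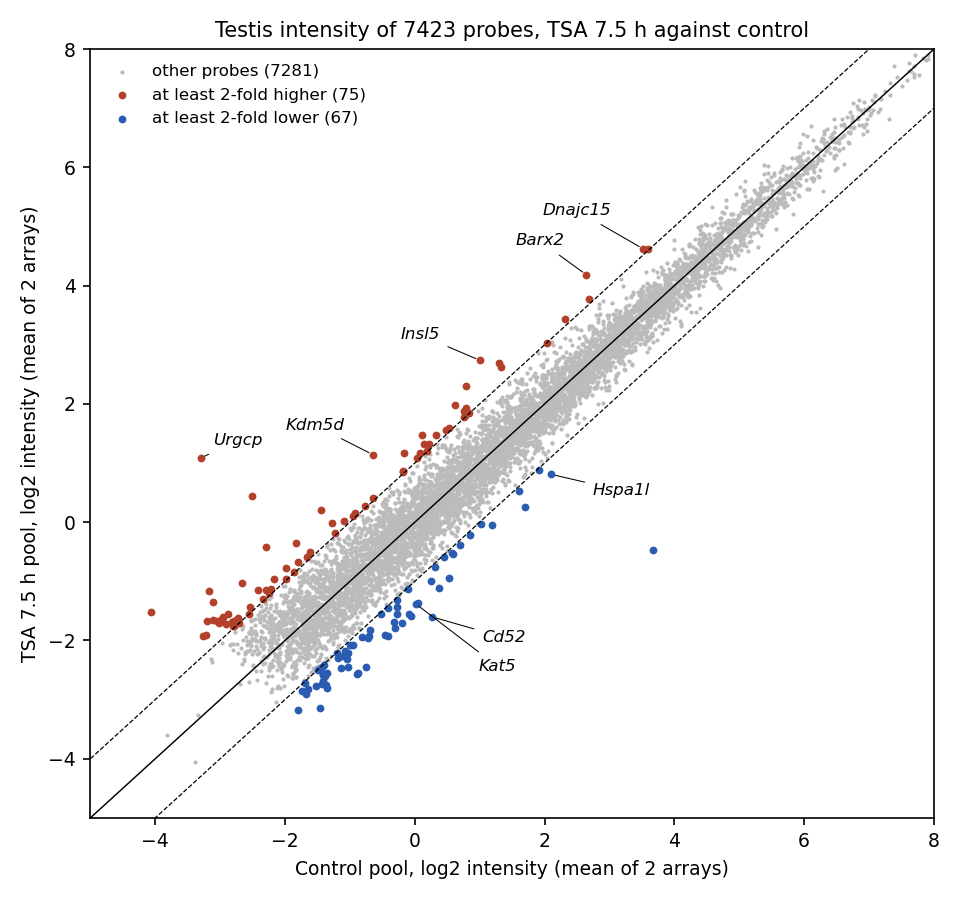
Mean log2 intensity in the control pool (x axis) and in the TSA 7.5 h pool (y axis) for 7423 probes; dashed lines mark 2-fold differences, red points the 75 higher and blue points the 67 lower calls. Blue points lie mainly at low intensity, while red points reach Dnajc15 at 24.7 in the TSA pool.

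Transcripts of the enzymes that TSA acts on differed little between the pools. Of the histone deacetylase and sirtuin genes, 10 were compared and 0 met the 2-fold rule. Over all genes 1.08% met it on the higher and 0.821% on the lower side. With dim members kept 1 of 13 was called lower. Hdac1, which works in the Sin3 and NuRD complexes, had intensities of 3.89 and 3.64 on the control arrays and 4.46 and 3.70 on the TSA arrays. These ranges overlapped, and the log2 fold was 0.11 ± 0.14. Hdac2 (0.03 ± 0.083), Hdac5 (0.04 ± 0.037) and Hdac6 (0.15 ± 0.12) also stood close to the control. Hdac3, the deacetylase of the nuclear receptor corepressors, was at 2.30 and 2.22 in the control and 1.72 and 1.65 after TSA, a log2 fold of -0.42 ± 0.040. Of the 5 sirtuins compared, 4 were below the control by similar amounts, and Sirt2, given here after its value was seen, was level at -0.04 ± 0.035. Sirt3, a mitochondrial deacetylase, had a log2 fold of -0.64 ± 0.024 and was the 1 member of the list at least 1.5-fold lower. Sirt1, Sirt4 and Sirt5 stood at -0.46 ± 0.040, -0.46 ± 0.18 and -0.49 ± 0.13. The list's median was -0.23, and -0.42 with the 3 dim members kept. It was -0.0053 over 8 members with the lowest 50% of probes left out.

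Subunits of the deacetylase complexes went both ways. Zmynd8, which reads modified histones and joins the NuRD complex, was 1 of 20 compared members that met the 2-fold rule, with intensities of 2.82 and 2.23 in the control and 5.81 and 6.53 after TSA. On the lower side, Tbl1xr1, a subunit of the corepressor complex of Hdac3, had a log2 fold of -0.89 ± 0.060. Mbd3, a NuRD subunit, did not meet the rule either, at -0.63 ± 0.047, and the histone chaperone Rbbp7 stood at -0.50 ± 0.031. The median of the 20 members was 0.06.

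Acetyltransferases and bromodomain readers were mostly below the control. Among the 22 compared members 17 had a negative log2 fold, with a median of -0.21 against -0.01 for all genes and a range of medians over single array pairs of -0.27 to -0.20. Kat5, the Tip60 acetyltransferase that acts at DNA breaks and on histone H4, was the 1 member past 2-fold. Its intensities were 1.03 and 0.995 on the control arrays and 0.393 and 0.375 on the TSA arrays, a log2 fold of -1.40 ± 0.042. The groups were separate, as the rule requires, and each pair of duplicates nearly coincided. Brdt, the bromodomain protein that binds acetylated histones in spermatids, was at 1.01 and 0.840 in the control and at 0.526 and 0.531 after TSA (-0.80 ± 0.13). Brpf1, the scaffold of an acetyltransferase complex, and the nuclear receptor coactivator Ncoa1 were exceptions on the higher side at 0.71 ± 0.13 and 0.69 ± 0.11.

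On the higher side Kdm5d had the largest fold of the genes with both pools above the intensity limit. This Y-linked gene encodes a demethylase of histone H3 lysine residues. It stood at 0.641 and 0.635 in the control and at 2.33 and 2.10 after TSA, a log2 fold of 1.79 ± 0.078. The pools at 2.5 h and 5 h had levels of 0.765 and 1.05, nearer to the control. In the 10 h pool it was at 1.85, nearer to the level at 7.5 h. Its X-linked paralog Kdm5c was higher by 0.83 ± 0.16. Of the 9 Y-linked genes compared, Kdm5d was the 1 that was called, and their median was -0.09. Probe sequences were not used here, so binding of related transcripts to the Kdm5d probe was not tested. Among the methyltransferases of arginine, Prmt2 was higher by 0.96 ± 0.15 and Prmt5, which is needed in germ cells, lower at -0.88 ± 0.19.

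The list of histones, other chromatin proteins and spermatid packaging proteins lay slightly above the control, with a median of 0.19 over 20 members. Prm3, a protamine family gene, was at 27.9 and 27.9 in the control and at 42.0 and 38.9 after TSA (0.54 ± 0.055). Hmgn3, a nucleosome binding protein, was higher by 0.64 ± 0.022, and Hmgb2, a DNA bending protein, was lower at -0.51 ± 0.065. H2ax, the histone variant marked at DNA breaks, was the 1 called member of this list. It stood at 0.485 and 0.495 in the control and at 0.213 and 0.158 after TSA, near or below the limit of 0.207, so no fold is given.

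Genes that often respond to deacetylase inhibitors in cultured cells gave 0 calls among the 24 members compared, at 2-fold or 1.5-fold in either direction. Over all genes 1.08% were called higher and 0.821% lower at 2-fold, and 6.22% and 5.43% at 1.5-fold, so few calls would match these shares. With dim members kept, 0 of 31 were called higher and 2 lower at 2-fold, beside 237 and 247 of 8738 genes. Of the 24, 18 had a log2 fold above 0 with a median of 0.15. Cdkn1a, the cell cycle inhibitor p21, stood at 2.92 and 2.79 in the control and at 3.08 and 3.17 after TSA, a log2 fold of 0.13 ± 0.037. Id3, an inhibitor of helix-loop-helix factors, was at 0.39 ± 0.17 and the inducible heat shock gene Hspa1b at 0.38 ± 0.040. Gadd45a, a stress gene, was at -0.37 ± 0.18. Pmaip1, a p53 target that promotes cell death, was the 1 called member of the apoptosis list, at 1.03 and 1.09 in the control and 2.35 and 2.15 after TSA. Trp53inp1 (0.73 ± 0.035) and Casp8 (0.51 ± 0.030) of that list were also above the control, and Diablo (-0.66 ± 0.025) below it.

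Peptide hormone genes were almost all above the control. Of 21 members compared 20 had a positive log2 fold, 5 reached 1.5-fold on the higher side and 2 met the 2-fold rule. Over all genes 3218 of 6574 had a positive fold, and 6.22% and 1.08% passed those limits on the higher side. The hormone median was 0.35, and 0.30 with the 28 dim members kept. With them kept, 3 of 49 were called higher and 0 lower. Insl5, a relaxin family peptide of gut endocrine cells, had intensities of 2.003 and 1.997 on the control arrays and 6.75 and 6.62 on the TSA arrays. Ghrl, which encodes ghrelin, stood at 1.63 and 1.82 in the control and at 4.76 and 5.08 after TSA. Iapp, the amylin gene, was higher by 0.65 ± 0.054. Inha, the inhibin alpha subunit made by Sertoli cells, was the exception at -0.71 ± 0.19.

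Their receptors stood above the control as well. Among 26 compared receptor genes 21 had a positive fold, 10 reached 1.5-fold on the higher side and 3 met the 2-fold rule. Over all genes 3218 of 6574 had a positive fold, and 6.22% and 1.08% passed those limits on the higher side. The receptor median was 0.36, or 0.26 with dim members kept. With them kept, 3 of 49 receptors were called higher and 2 lower, beside 237 and 247 of 8738 genes. Adcyap1r1, a receptor of the neuropeptide PACAP, was at 0.564 and 0.497 in the control and at 1.113 and 1.111 after TSA (1.07 ± 0.091, or 0.98 without 1 control array). Calcr, the calcitonin receptor, and Aplnr, the apelin receptor, were called from dim control levels of 0.104 and 0.108 and reached 0.265 and 0.313. With the offset of 0.5 before log2 the receptor list had 0 calls. Npy2r, a receptor of neuropeptide Y, was higher by 0.72 ± 0.023, and the opioid receptor Oprd1 by 0.84 ± 0.095. The filter on dim probes used the TSA arrays too, so a gene that was high only in a TSA pool could pass through that pool. For that reason the medians with dim members stand beside these counts.

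Homeobox genes encode regulators of body patterning and cell identity. Of 51 compared, 40 were above the control, and the median was 0.39 with members from -1.48 to 1.55. With the 47 dim members kept it was 0.24, below the hormone and receptor medians of 0.30 and 0.26. At 2-fold 6 genes were higher and 1 lower, beside 1.08% and 0.821% of all genes, and with the offset of 0.5 before log2 1 and 0. With dim members kept 11 of 98 were called higher and 4 lower, beside 237 and 247 of 8738 genes. Barx2 was the brightest of the 6 higher genes, with 6.22 and 6.26 on the control arrays and 18.7 and 17.7 on the TSA arrays. Evx1 stood at 0.214 and 0.231 against 0.532 and 0.498 (1.21 ± 0.073), and Hoxd1 at 0.425 and 0.427 against 0.851 and 0.922 (1.06 ± 0.057, or 0.9997 without 1 TSA array). In each of these genes the duplicates lay close together, and the pools did not overlap, as the rule requires. Vax2 was higher by 1.04 ± 0.10, and Barx1 and Isl1 were called from dim control levels of 0.151 and 0.143. Pou6f1 was the 1 lower member, at 0.991 and 0.899 in the control and 0.352 and 0.327 after TSA. Other patterning regulators had a median of 0.21 over 33 members, of which 3 were called and all 3 were higher. With dim members kept 4 of 57 were called higher and 2 lower. Gata5, a zinc finger factor of heart and gut, was at 1.21 and 1.12 against 2.38 and 2.63. Zic2, a factor of the developing brain, had a log2 fold of 1.01 ± 0.080, which was 0.93 without 1 of the TSA arrays. The forkhead gene Foxb1 was called from a dim control level of 0.136.

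**Figure D2:**
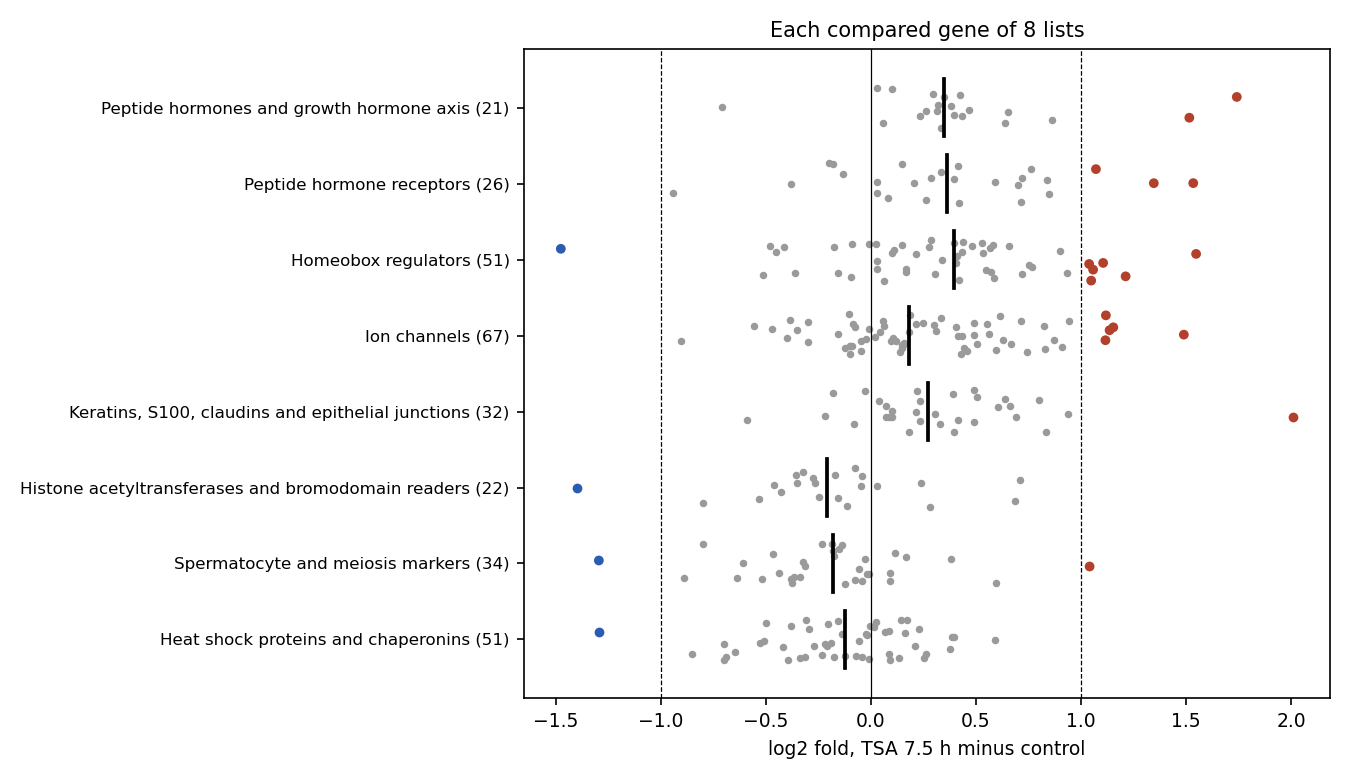
Log2 fold of every compared gene of 8 lists (x axis), with the number of genes in brackets; coloured points met the 2-fold rule, grey points did not, thick bars are list medians and the vertical offset of points is arbitrary. Hormone, receptor and homeobox genes lie mostly to the right of 0, and acetyltransferase, meiosis and heat shock genes mostly to the left.

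Ion channel genes gave 5 higher and 0 lower calls among 67 compared, and 0 of either with the offset of 0.5. Over all genes 1.08% were called higher and 0.821% lower. With dim members kept 10 of 127 channel genes were called higher and 1 lower, beside 237 and 247 of 8738 genes. The median of the list was 0.18, or 0.16 with dim members kept, and 46 of the 67 were above the control. Kcnd2, a potassium channel of neurons and heart, was at 1.62 and 1.76 in the control and at 3.51 and 3.83 after TSA. Ttyh2, a chloride channel family member, was at 1.802 and 1.643 against 3.838 and 3.815. Gabrd, a subunit of the GABA receptor, was at 0.260 and 0.303 against 0.848 and 0.730 (1.49 ± 0.15). Kcna7 and Gabrr1 were called from dim control levels of 0.172 and 0.142. The error of Chrna7, an acetylcholine receptor subunit at 0.94 ± 1.12, was larger than its fold.

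Epithelial junction genes were mostly above the control. In the list of keratins, S100 proteins and claudins 27 of 32 were above the control with a median of 0.27. With the 35 dim members kept the median was 0.24. Of those 67 members 10 were then called higher and 4 lower, beside 237 and 247 of all 8738 genes. Matrix genes had a median of -0.13 over 51, which was -0.03 after centring on probe number and 0.06 with the lowest 50% of probes left out. Cldn15, a tight junction protein, was at 1.56 and 1.57 in the control and at 2.96 and 3.04 after TSA (0.94 ± 0.021). S100a14, the 1 called member, went from 0.111 to 0.447 and so began below the intensity limit. Of the matrix list 2 genes were called, both on the higher side. Ncan, the brain proteoglycan neurocan, stood at 2.18 and 2.79 against 6.96 and 5.98, and Col16a1, a collagen associated with fibrils, at 1.46 and 1.62 against 3.87 and 4.02. Neuronal genes as a list had a median of 0.09, and 2 of 32 were called, Ncan and Elavl3.

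The remaining named genes on the higher side belonged to no list, except Laptm5 of the leukocyte list and Gdf9 and Bmpr1b of the TGF-beta and BMP list. Prorsd1, named for its likeness to a domain of prolyl-tRNA synthetase, stood at 0.427 and 0.319 in the control and at 1.11 and 1.21 after TSA (1.65 ± 0.22). Rai2, a gene first described as induced by retinoic acid, was at 1.07 and 1.08 against 2.79 and 2.78 (1.37 ± 0.0056). Its duplicates were the closest of any gene named. Limch1, a protein with LIM and calponin homology domains, was at 0.849 and 0.928 against 2.31 and 2.19. Laptm5, a lysosomal membrane protein of blood cells, was at 0.407 and 0.420 against 0.910 and 1.08. Ifrd1, a transcriptional coregulator, stood at 1.09 and 1.11 against 2.67 and 2.35. Dnajc15, a mitochondrial partner of Hsp70, was the brightest of the genes named as higher, at 11.3 and 11.6 against 24.9 and 24.5 (1.11 ± 0.019). Trim69, a ring finger protein of germ cells, was at 6.68 and 6.19 against 13.3 and 14.1 (1.09 ± 0.068). Gdf9, best known as a growth factor of the oocyte, was at 0.442 and 0.502 against 1.08 and 0.946. The receptor gene Bmpr1b, also of that signalling list, had a log2 fold of 1.07 ± 0.23, and 0.85 without 1 of the control arrays.

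Urgcp had the largest difference of all genes. It was at 0.116 and 0.0889 on the control arrays, far below the intensity limit, and at 3.07 and 1.47 on the TSA arrays. The TSA duplicates were over 2-fold apart, and no fold is given.

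**Figure D3:**
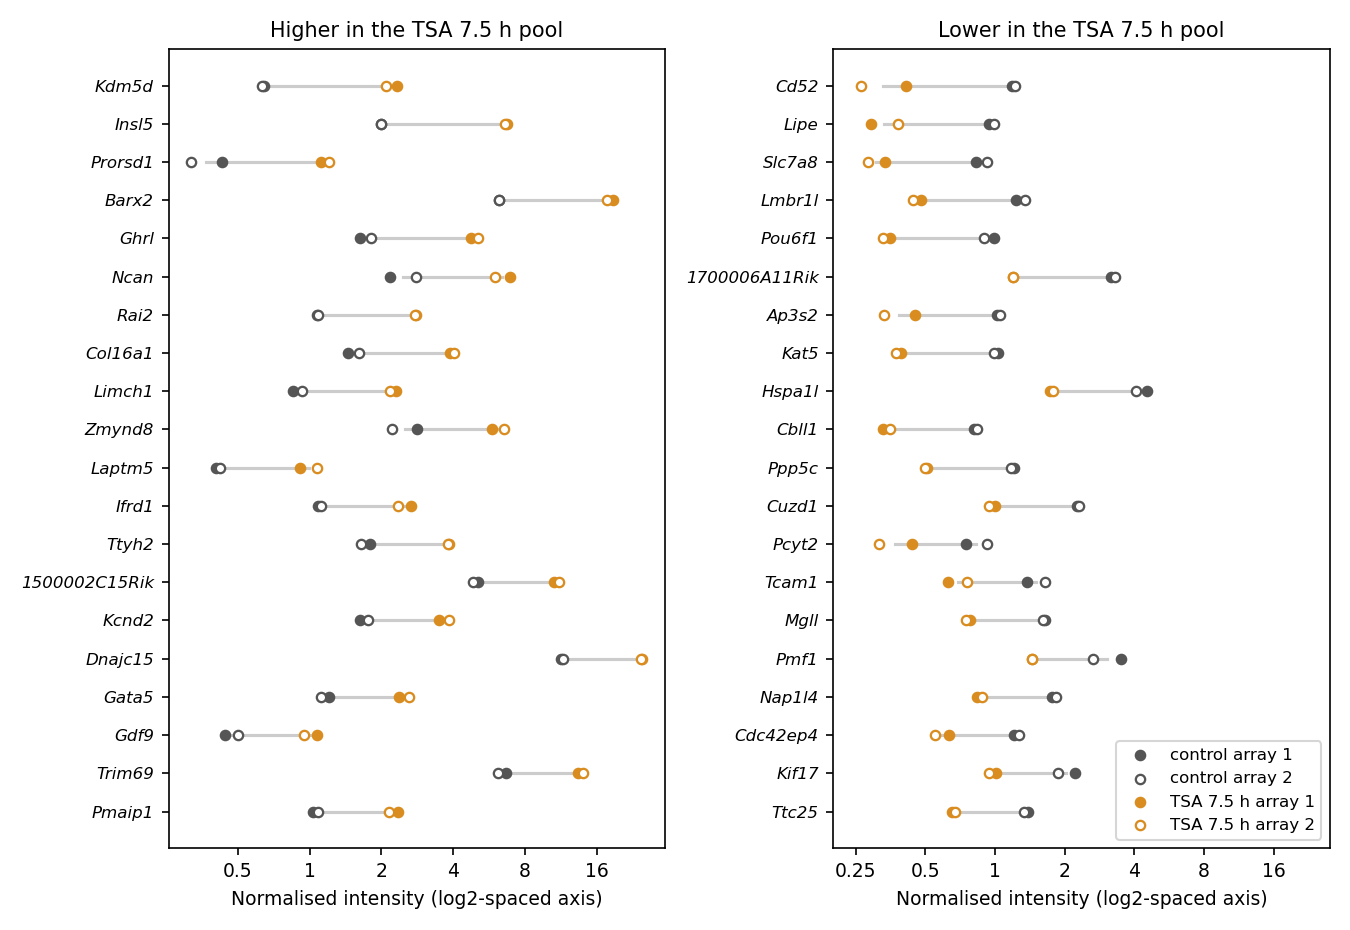
Normalised intensity on each of the 4 arrays (log2-spaced x axis) for the 20 higher and 20 lower genes with the largest folds among those with both pools above the limit; grey lines join the pool means. In all 40 genes both TSA arrays lie beyond both control arrays, as the rule requires, with the widest gaps in Kdm5d and Cd52.

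The offset of 0.5 before log2, which shrinks folds of dim genes, left 11 of the 20 higher and 3 of the 20 lower genes of this plot past 2-fold. Kdm5d, Insl5, Barx2, Ghrl, Ncan, Rai2, Col16a1, Zmynd8, 1500002C15Rik, Dnajc15 and Trim69 were the higher ones, and Cd52, 1700006A11Rik and Hspa1l the lower. The calls of Tex11, Adcyap1r1, Evx1, Hoxd1, Zic2, Gabrd, Nxn, Nr4a2, Bmpr1b, Wnt7a and H2ax were lost with it too. In the homeobox list Barx2 was the 1 call left, so that of Vax2 was lost as well.

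Cd52 had the largest fold on the lower side. It encodes a small surface glycoprotein of lymphocytes and of the epididymis, and it stood at 1.18 and 1.22 in the control and at 0.412 and 0.263 after TSA (-1.87 ± 0.32). The other TSA pools were lower still, at 0.117, 0.123 and 0.0903 for 2.5, 5 and 10 h. Summed intensity over 41 leukocyte markers was 29.4 and 31.1 on the control arrays and 30.1 and 30.2 on the TSA arrays, so the sums overlapped. Of these markers 18 were below the limit of 0.207 in the control pool and 17 in the TSA pool. Over 7 epididymis markers the sums were 9.78 and 9.13 against 9.83 and 9.50 and overlapped too, with 4 and 5 of the markers below the limit. The leukocyte list gave 1 lower call, Cd52, and 3 higher ones, Laptm5, Cd7 and Icosl, among 24 genes.

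Genes of lipid breakdown and of phospholipid synthesis were among the lower calls. Lipe, the hormone-sensitive lipase without which male mice are infertile, was at 0.940 and 0.987 in the control and at 0.291 and 0.381 after TSA (-1.53 ± 0.20). Mgll, which cleaves monoacylglycerols in a later step of the same route, was at 1.65 and 1.61 against 0.778 and 0.753 (-1.09 ± 0.031). Pcyt2, an enzyme of phosphatidylethanolamine synthesis, was at 0.749 and 0.921 against 0.437 and 0.314, and its log2 fold of -1.17 ± 0.28 was -0.93 without 1 of the TSA arrays. These 3 were grouped after their values were seen, and no lipid list was compared apart from cholesterol synthesis. That list had 0 calls among 12 genes and a median of -0.14, or 0.08 with the lowest 50% of probes left out.

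Hspa1l, the Hsp70 family member of spermatids, was at 4.53 and 4.08 in the control and at 1.73 and 1.78 after TSA. It was the 1 called member of the heat shock and chaperonin list, in which 33 of 51 genes were below the control and the median was -0.12. Trap1, the mitochondrial Hsp90, stood at -0.85 ± 0.12. Ppp5c, a protein phosphatase that binds Hsp90, was at 1.21 and 1.17 against 0.5089 and 0.5004 (-1.24 ± 0.028). Inducible Hspa1b, given above, lay on the other side. Nxn, the thioredoxin relative nucleoredoxin, was the 1 call among 43 genes of the glutathione and thioredoxin list, and stood at -1.03 ± 0.15 with -0.92 when 1 control array was left out.

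Of the other named lower genes, most belonged to no list. Tcam1, an adhesion molecule of the testis, was at 1.37 and 1.65 in the control and 0.625 and 0.760 after TSA (-1.13 ± 0.19). Kif17, a kinesin that carries a cofactor of CREM in spermatids, was at 2.22 and 1.87 against 1.01 and 0.946 (-1.06 ± 0.13). Ttc25, a docking protein of ciliary outer dynein arms, was at 1.39 and 1.34 against 0.653 and 0.673. Nap1l4, a histone chaperone, was at 1.76 and 1.84 against 0.832 and 0.881 (-1.07 ± 0.050). Pmf1, a kinetochore protein, was at 3.51 and 2.65 against 1.45 and 1.45, with the control arrays well apart. Without the higher control array the log2 folds of Pmf1 and Kif17 were -0.87 and -0.93, and Tcam1 stood at -0.99 without 1 of the TSA arrays, all short of the limit. Slc7a8, an amino acid transporter, stood at 0.832 and 0.920 against 0.334 and 0.282 (-1.51 ± 0.14). Lmbr1l, described as a membrane receptor for a lipocalin, was at 1.23 and 1.35 against 0.479 and 0.444 (-1.48 ± 0.083). Ap3s2, a subunit of an adaptor complex of vesicle transport, was at 1.02 and 1.05 against 0.451 and 0.331. In these transporter and trafficking genes the groups were separate, as the rule requires, though the TSA arrays of Ap3s2 differed visibly. Cbll1, the ubiquitin ligase Hakai, was lower at -1.28 ± 0.052, Cuzd1 at -1.23 ± 0.047, Cdc42ep4, an effector of the GTPase Cdc42, at -1.07 ± 0.11 (-0.97 without 1 TSA array), and 1700006A11Rik at -1.44 ± 0.031.

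Levels of these genes in the other TSA pools differed in kind. All TSA pools share the control pool, so their distances from it are not independent. Trim69 stood at 6.43 in the control, 6.46 at 2.5 h and 7.36 at 5 h, and at 13.7 and 12.6 at 7.5 and 10 h. 1500002C15Rik had the same shape, with 4.96, 4.78 and 5.58 followed by 10.9 and 9.85. Insl5 by contrast was at 5.71 by 2.5 h and at 5.55, 6.68 and 6.98 later, and Prorsd1 was at 1.16 to 1.30 in all 4 TSA pools. Lipe stepped down through 0.706, 0.503, 0.333 and 0.282, and Lmbr1l through 1.11, 0.850, 0.461 and 0.396. Slc7a8 was lowest at 7.5 h (0.307, against 0.399 at 10 h), as was Ap3s2 (0.386 against 0.535). Barx2 was highest at 7.5 h (18.2, against 16.4 at 10 h). Differences between neighbouring pools were not called here, since each pool is 1 sample.

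**Figure D4:**
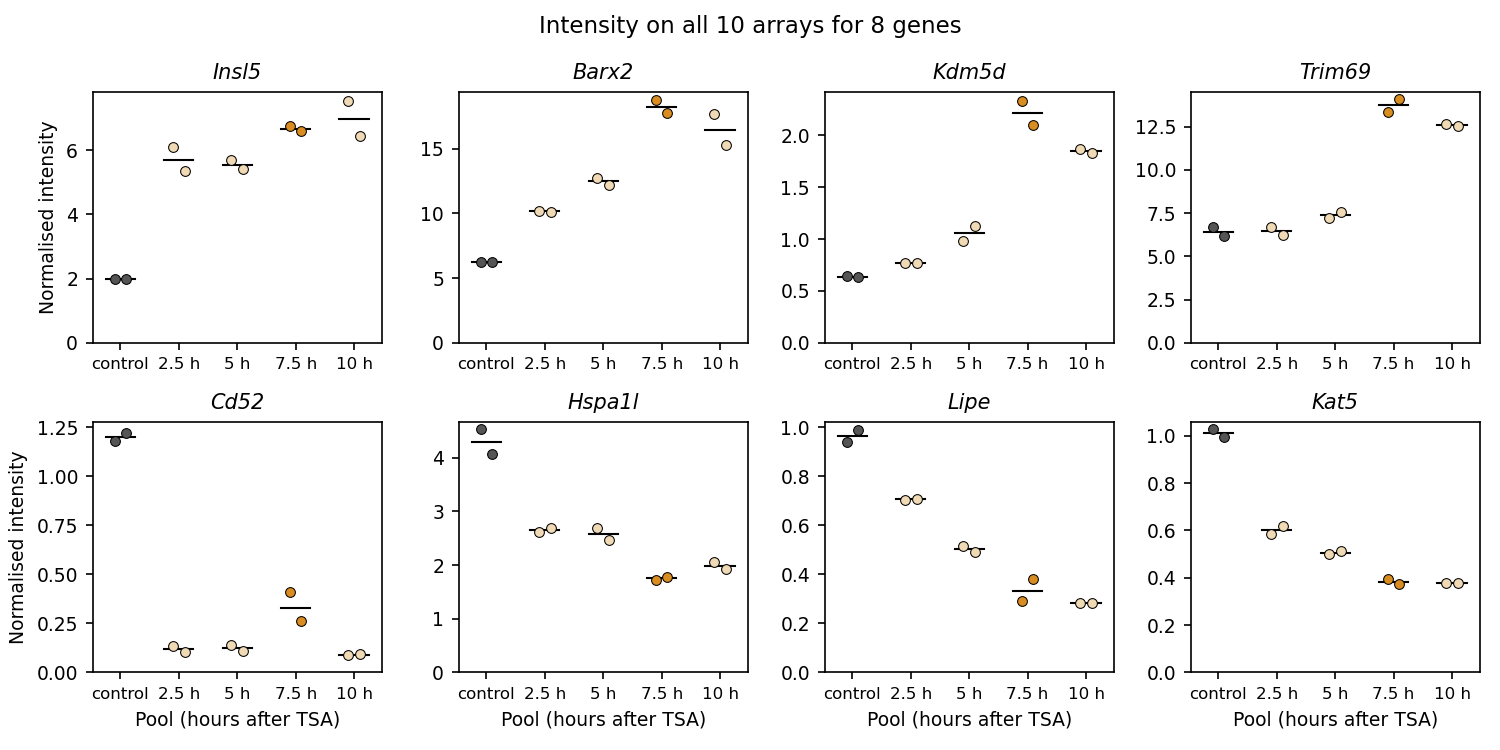
Normalised intensity (linear y axes from 0) of 8 genes on all 10 arrays, grouped by pool; grey points are control arrays, dark orange points the TSA 7.5 h arrays, pale points the other TSA arrays and bars the pool means. Trim69 and Kdm5d are near the control at 2.5 h and high at 7.5 h, while Insl5 is high and Cd52 low in all 4 TSA pools.

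Germ cell lists showed a lower meiotic list beside level spermatid markers. Of 34 compared spermatocyte and meiosis genes 27 were below the control. At 1.5-fold 5 were lower and 2 higher, beside 5.43% and 6.22% of all genes. The median was -0.18 with array pair medians from -0.25 to -0.15. The summed intensity of 35 such markers was 663 and 656 on the control arrays and 612 and 613 on the TSA arrays, and these did not overlap. Rec8, a cohesin subunit of meiosis, was at 0.918 and 0.881 in the control and at 0.528 and 0.447 after TSA (-0.89 ± 0.12). Pgk2, the phosphoglycerate kinase of germ cells, was lower at -0.52 ± 0.052. The list held 1 lower call, Hspa1l, which also stands in the spermatid and heat shock lists. Tex11, an X-linked meiosis gene, was the 1 higher call, at 0.971 and 1.09 against 1.97 and 2.27 (1.04 ± 0.13, or 0.94 without 1 TSA array). In pooled tissue, fewer cells of a type and less RNA per cell cannot be told apart. Spermatid markers summed to 2712 and 2678 against 2702 and 2691, with a median fold of -0.02 over 50 genes. Within them Dnah8, a dynein heavy chain of the sperm tail, was at -0.75 ± 0.046 and Klhl10, a spermatid protein needed for fertility, at -0.69 ± 0.077. Spermatogonial markers had a median of -0.07 with 0 calls among 12.

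The Leydig, Sertoli and peritubular lists gave 0 calls at 2-fold among 22, 22 and 8 genes. Over all genes 1.08% were called higher and 0.821% lower. The Leydig list had 4 of 22 genes at least 1.5-fold lower and 0 higher, beside 5.43% and 6.22% of all genes. Star, which brings cholesterol into mitochondria for steroid synthesis, was at 3.37 and 3.08 in the control and at 1.79 and 1.66 after TSA (-0.90 ± 0.084). Scarb1, a receptor that takes up cholesterol from lipoproteins, was at 5.09 and 4.51 against 3.04 and 2.94 (-0.68 ± 0.091). Vcam1 (-0.74 ± 0.18) and Klk1b24 (-0.82 ± 0.18) were the other named members. The median over the 22 Leydig genes was -0.04, and their summed intensities overlapped at 398 and 404 against 403 and 392. In the Sertoli list 4 of 22 genes were at least 1.5-fold lower and 1 higher, among them Inha and the nuclear receptor gene Nr0b1 (-0.62 ± 0.13). The smooth muscle genes of peritubular cells, Acta2 (-0.39 ± 0.096) and Tagln (-0.29 ± 0.052), were below the control, and the list's median was -0.12 over 8.

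Markers of liver were level in these pools. Their summed intensity over 47 genes was 43.4 and 42.9 in the control and 44.3 and 43.3 at 7.5 h, against 295 and 293 at 5 h. Of the 47 genes 23 were below the limit in the control pool and 25 in the TSA pool. Blood markers summed to 40.1 and 36.9 against 36.7 and 36.6, and Hba-a1, a haemoglobin gene, had a log2 fold of 0.0031 ± 0.056.

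Genes of DNA repair, energy supply and protein synthesis differed by less than 2-fold in nearly all cases. Among 37 repair genes 22 were below the control and the median was -0.20. At 1.5-fold 5 of them were lower and 1 higher, beside 5.43% and 6.22% of all genes. Rpa2, which coats single-stranded DNA, was at 0.984 and 0.886 in the control and at 0.428 and 0.516 after TSA (-0.99 ± 0.16). Fancg and Fanca, of the Fanconi anaemia pathway, stood at -0.81 ± 0.084 and -0.64 ± 0.11. Neil1, a DNA glycosylase, was the 1 higher call of this list and began from a dim 0.127. The cell cycle list had a median of -0.01 over 62 genes and 0 calls. Of these 62, 5 were at least 1.5-fold lower and 0 higher, beside 5.43% and 6.22% of all genes. Mcm7, a subunit of the replicative helicase, was at -0.97 ± 0.21 and the mitotic kinase gene Plk1 at -0.75 ± 0.032.

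In energy metabolism, respiratory chain genes stood slightly above the control, with 28 of 39 above 0 and a median of 0.16. Ndufa5, a subunit of complex I, was at 16.03 and 16.05 in the control and at 28.06 and 26.52 after TSA (0.77 ± 0.041). Cox6a2, a muscle form of a cytochrome oxidase subunit, was the 1 call, at a dim 0.116 in the control and 0.318 after TSA. The pyruvate kinase genes were on opposite sides. Pkm, the common form, was at 2.90 and 2.95 against 1.58 and 1.53 (-0.91 ± 0.024), and Pklr, the form of liver and red cells, was higher by 0.99 ± 0.098. Ribosomal protein genes had 38 of 55 above 0 with a median of 0.13 and no call, while translation factors had a median of -0.10 over 38. Eef2, the elongation factor of translocation, was at 3.36 and 3.16 against 1.78 and 1.75 (-0.88 ± 0.044), and Eif4e, which binds the mRNA cap, was higher by 0.84 ± 0.13. Proteasome genes had a median of 0.02 and 0 calls among 37.

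Signalling lists held 0 to 2 calls each, where 1.08% of all genes were called higher and 0.821% lower. Cytokines, chemokines and their receptors gave 0 calls among 49 genes, with 30 above the control and a median of 0.21. Cxcr4, a chemokine receptor of stem cells and leukocytes, was at 3.81 and 3.63 in the control and at 7.33 and 7.21 after TSA, just below the limit at 0.97 ± 0.037. In the Wnt list 2 of 33 genes were called, Wnt7a at 1.02 ± 0.36 and Fzd7 from a dim 0.187. Axin1, a scaffold that restrains the pathway, was at -0.92 ± 0.061. The TGF-beta and BMP list had 2 calls among 34 genes, Gdf9 and Bmpr1b, given above. All 4 calls were higher, and with the offset of 0.5 before log2 both lists had 0 calls. Nr4a2 was the 1 call of the immediate early list (1.02 ± 0.31). The calls of Wnt7a and Nr4a2 rested on 1 of the TSA arrays, without which they stood at 0.67 and 0.71. As the groups were killed at different hours, clock genes were listed too: 0 of 12 were called, Arntl stood at 0.74 ± 0.026, Per1 at 0.57 ± 0.23 and Dbp at -0.38 ± 0.010, and their part in the other differences was not tested.

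**Figure D5:**
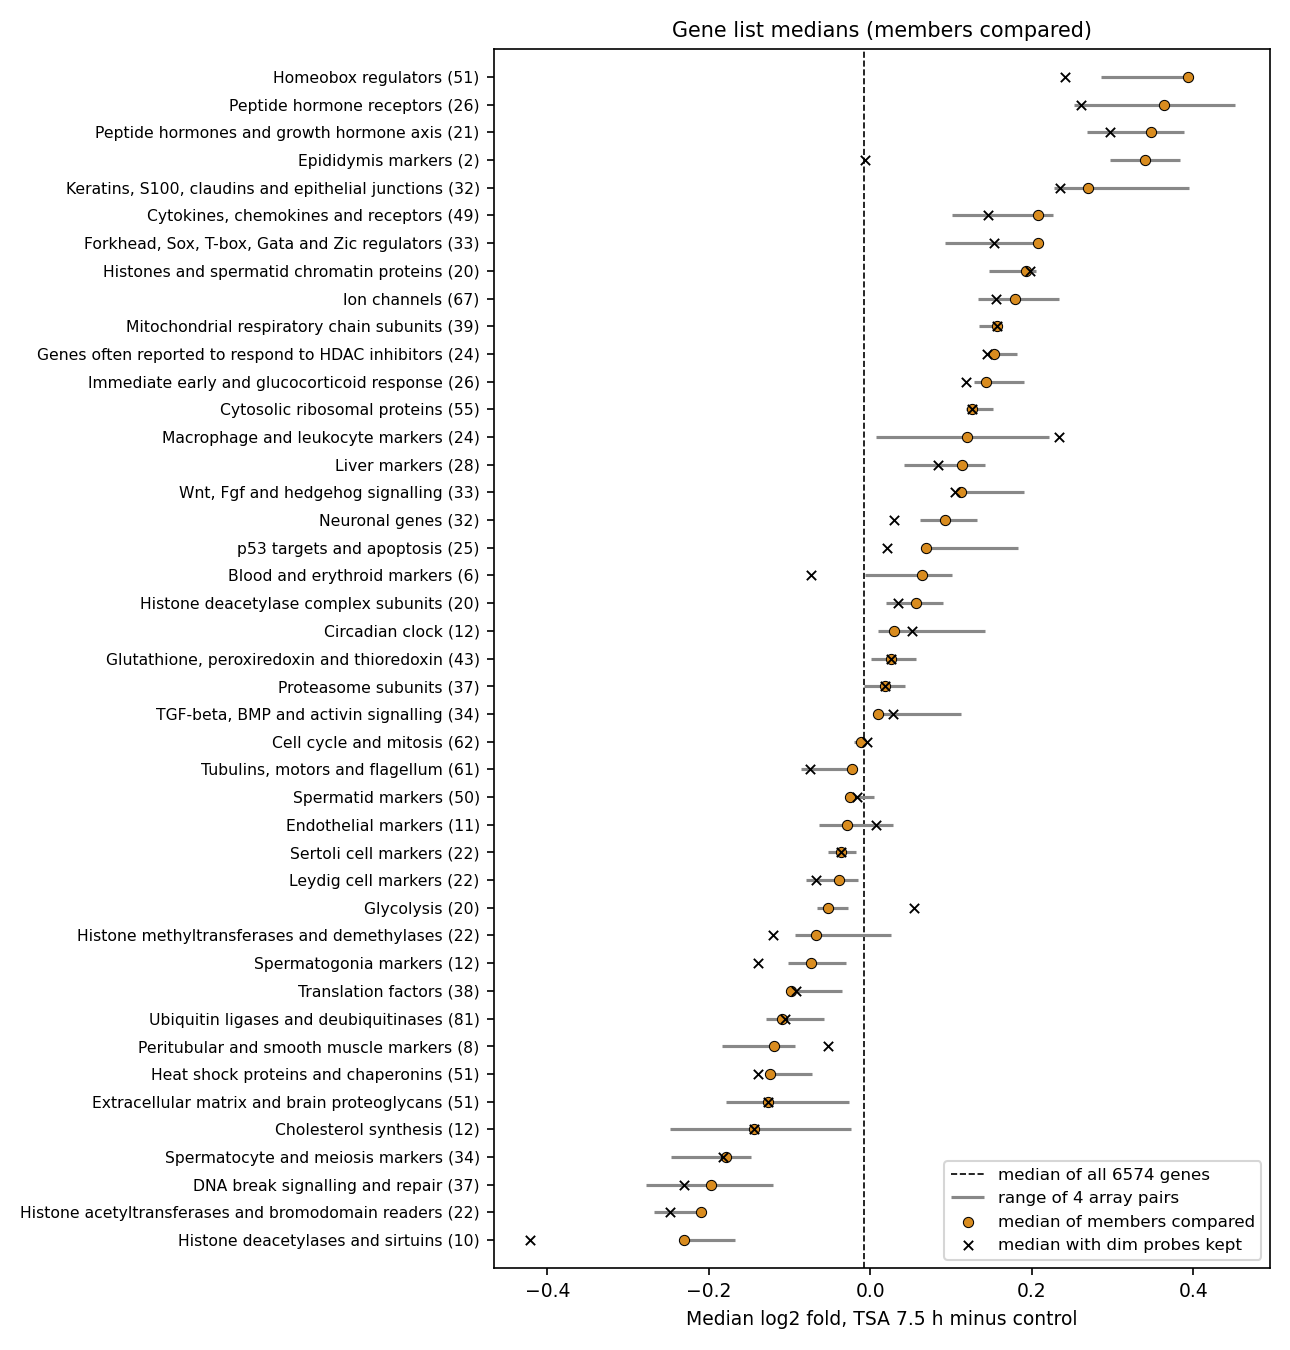
Median log2 fold (x axis) of 43 gene lists, with the number of genes compared in brackets; circles are members that passed the filter, crosses all members with a value, grey lines the range over the 4 pairs of single arrays, drawn to the circle, and the dashed line the median of all 6574 genes. Homeobox, receptor and hormone lists are at the top between 0.35 and 0.39, and the list of deacetylases and sirtuins at the bottom at -0.23.

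Promoter letters of called genes were read from RefSeq sequences on GRCm38.p6, over the 250 bases before each start. A promoter was found for 5325 of the 6574 genes, 52 of the 71 higher and 39 of the 54 lower genes. The GC box GGGCGG, searched on both strands, was in 60% of all promoters, 61.5% of those of higher and 56.4% of those of lower genes. The core TGACG of the cAMP response element, on both strands, was in 29.1%, 30.8% and 35.9%. The TATA box TATAAA, searched on the gene's strand alone, was in 5.75% of all, 13.5% of the higher and 2.56% of the lower genes. These last shares stand for 7 and 1 genes: Bmpr1b, Elavl3, Hps1, Insl5, Kdm5d, Laptm5 and Rnd3 were the higher ones and 1810065E05Rik the lower. Median CpG counts per 100 bases were 6.4, 5.2 and 6.8. The following 120 bases before the start are shown for 3 genes of each side, so that promoters of both can be set side by side. These are the genes of largest fold in the plot of 40 genes that had 1 start in the table and a window wholly before the gene's annotated span. Kdm5d, Ncan, Col16a1, Laptm5 and Pou6f1 had 1 start but a window inside that span, so the 6 shown do not stand for the called genes at large. They are read 5′ to 3′ on the gene's strand, with GC boxes and the TGACG core in capitals in either orientation.
Prorsd1, higher, chr11:29515034-29515153, minus strand: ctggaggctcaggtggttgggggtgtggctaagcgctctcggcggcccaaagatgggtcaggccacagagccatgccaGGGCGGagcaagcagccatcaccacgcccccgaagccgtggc
Ifrd1, higher, chr12:40223190-40223309, minus strand: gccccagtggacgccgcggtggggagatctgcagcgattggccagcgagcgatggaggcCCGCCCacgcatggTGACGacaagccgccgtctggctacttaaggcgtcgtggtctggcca
Ttyh2, higher, chr11:114675348-114675467, plus strand: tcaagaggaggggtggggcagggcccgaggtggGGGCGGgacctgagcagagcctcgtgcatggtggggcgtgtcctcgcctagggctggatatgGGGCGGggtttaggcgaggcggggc
Slc7a8, lower, chr14:54781887-54782006, minus strand: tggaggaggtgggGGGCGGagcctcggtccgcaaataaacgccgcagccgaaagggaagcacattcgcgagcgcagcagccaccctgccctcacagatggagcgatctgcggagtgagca
Lmbr1l, lower, chr15:98918099-98918218, minus strand: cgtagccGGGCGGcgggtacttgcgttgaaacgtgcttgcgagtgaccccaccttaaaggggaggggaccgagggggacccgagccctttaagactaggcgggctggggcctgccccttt
Ap3s2, lower, chr7:79920641-79920760, minus strand: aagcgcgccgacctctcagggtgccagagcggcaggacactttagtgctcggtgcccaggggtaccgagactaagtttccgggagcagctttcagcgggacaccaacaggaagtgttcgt
A GC box lay in this window of all 3 higher genes and of Slc7a8 and Lmbr1l, and in none of the 250 bases of Ap3s2.

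Folds were also set against the probe numbers of the array. In 50 bins of probes of like number the median fold ranged from -0.15 to 0.15, and folds of probes with adjacent numbers correlated at 0.121 over 5263 pairs, which share their place in the numbering. Of the 75 higher calls 8 had another higher call at an adjacent number, where 1.01% of all probes were called higher. They were Prorsd1 beside Zmynd8, Gdf9 beside Bmpr1b, Dnajc15 beside Tex11, and Kdm5d beside a probe with no gene symbol. Of the 67 lower calls 4 had another lower call at an adjacent number, where 0.903% of all probes were called lower. These were Cit and Vcpip1, each beside a probe with no gene symbol. When each array was centred on probes of like number, Dnajc15 stood at 0.96, Gata5 at 0.90, Gdf9 at 0.90, Tex11 at 0.89, Bmpr1b at 0.87, Wnt7a at 0.94, Nr4a2 at 0.95, Adcyap1r1 at 0.97, Kif17 at -0.91, and Pmaip1 and Cbll1 at 0.9993 and -0.995, so these 11 named genes no longer met the rule. The homeobox median was then 0.32, the hormone median 0.33 and the receptor median 0.41. What the numbering stands for was not tested.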

How the data were processed

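The deposited table holds the authors' normalised intensity for 10012 probes on 10 arrays, of which 9897 have values. The sorted intensity values of all arrays were identical, so the deposited values had been quantile normalised. Which scanner software, background correction and program made them is not stated in any label or header used here. Symbols came from the platform table, matched to a mouse gene table by gene identifier (8975 probes) or symbol. Of all probes 8983 had 1 symbol, 1 had several and 1028 had none.

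Before log2 a floor was set at the 5th percentile (0.0364). The 25% of probes with the lowest mean log2 over the 10 arrays (under 0.207) were not compared, which left 7423. A gene with several probes is given by its brightest. The size rule was a fold of at least 2 with both TSA arrays beyond both control arrays. It was tested on simulated data. With 1 pool per group no test was possible, and precision is limited by how few arrays there are.

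Named genes are the 20 highest and 20 lowest that met the rule with both pools above 0.207 and a mean intensity of at least 0.5, and up to 6 each way with 1 pool below it and the other at 1 or above. To these come up to 4 genes of largest fold with both pools above 0.207 in each of 43 lists, and 22 genes always given, of which H1f0 and Insl3 were not measured. Other called members of a list are named where they are few, and were chosen after their values were seen. The members and lists were chosen with earlier results of these data known. Alternatives were the filter, the floor, an offset, the mean intensity of duplicates, the fold limit, centring on probe number, single arrays left out and, for lists, the mean of all probes. Python 3.11.15 with numpy 2.4.6, pandas 2.3.3 and matplotlib 3.10.9 was used.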

Additional observations from a re-analysis of the deposited data

How the results depend on the processing

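Counts of called probes depended on how dim probes were treated. Against 75 higher and 67 lower probes, no filter gave 268 and 286 (median log2 fold -0.0031), leaving out the lowest 50% gave 30 and 7, and an offset of 0.5 before log2 gave 14 and 4. A 1.5-fold limit gave 469 and 407, and a 3-fold limit 10 and 6. Leaving out 1 array at a time gave 85 to 94 higher and 66 to 90 lower probes, with medians from -0.0116 to -0.0052. No floor and no condition on single arrays each gave 75 and 67, the mean intensity of duplicates 73 and 66, and centring on probe number 73 and 70, of which 54 and 57 were among the original calls.

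The naming rules gave 52 genes that were called. Of these, 14 met the size rule under every alternative on filter, floor, offset, duplicates, centring and single arrays that still compared them, and 0 changed direction. Called list members named beyond those rules, such as Vax2, Calcr and Aplnr, were not part of this count. The offset ended 37 calls, centring 11 and single arrays 2 to 8. Without 1 TSA array Wnt7a stood at 0.67 and Nr4a2 at 0.71, and Tcam1, Nxn, Tex11, Zic2, Bmpr1b, Pmf1, Kif17, Pcyt2, Cdc42ep4, Hoxd1 and Adcyap1r1 also lost the rule without 1 array or another, by less. List medians over the alternatives ranged from 0.19 to 0.43 for homeobox genes, 0.24 to 0.39 for hormones, 0.16 to 0.41 for their receptors, -0.24 to -0.14 for meiosis genes and -0.26 to -0.08 for acetyltransferases and bromodomain readers. No paired analysis was possible because each group is 1 pool read on duplicate arrays and the result comes from no test.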
